A study of Mus musculus with 12 samples.

Results

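The 7 genes described here take iron into mitochondria and build iron-sulfur clusters from it: Slc25a37, Slc25a28, Nfs1, Iscu, Isca1, Glrx5 and Hscb. Members were all probe sets, the array's sets of short DNA probes for a transcript, that the platform annotation assigned to exactly 1 of these symbols. This gave 10 of the 45101 probe sets and 7 of the 18193 genes that at least 1 such unambiguous probe set named. Nfs1 had 3 probe sets, Isca1 had 2 and the other 5 genes had 1 each; 1 more probe set named Slc25a37 together with another gene and was left out. In limma, 0 of the 10 member probe sets passed an adjusted p of 0.05 in any of 8 comparisons, where the same fit called 0% of all probe sets in 7 comparisons and 0.00222% in 1, so the count says nothing particular about the members. The largest average change with iron was a 1.09-fold higher signal of Slc25a28.

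RNA of BNL CL.2 cells was hybridised to 12 Affymetrix mouse arrays, 3 in each of 4 groups, after 24 h of culture with further cells in an insert. In RAW_FAC the insert held RAW 264.7 cells and the medium 100 micromolar ferric ammonium citrate, in FAC it held more BNL CL.2 cells with the same iron salt, in RAW it held RAW 264.7 cells without added iron, and in alone it held BNL CL.2 cells without added iron. BNL CL.2 is a mouse liver line and RAW 264.7 a mouse macrophage line, so RAW_FAC and RAW rest on 1 liver and 1 macrophage line, FAC and alone on the liver line only, and no genotype differed. All values are log2 signals as deposited, where 1 unit is a factor of 2, and levels are not compared between genes because probe sets differ in brightness. The signal of a bulk culture cannot tell fewer cells carrying a transcript from less transcript per cell.

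The labelled cell type was checked against markers. The keratins Krt8, Krt18 and Krt19 averaged 14.28, 14.07 and 13.32 over the 12 arrays, and the other epithelial and biliary markers, Epcam and Sox9, 6.74 and 6.17. Of 7 hepatocyte markers measured, 2 lay below 5.64, the median of all probe sets: albumin (Alb) at 5.20 and Cyp2e1 at 5.05. Above it were Hnf4a, a transcription factor of hepatocytes, at 10.45, Afp at 9.04, Ttr at 6.49, Apoa1 at 6.24 and Tat at 5.69. Of 12 macrophage markers 9 lay below that median, with Ptprc at 3.50 and Adgre1 at 4.96. Above it, Cd14 was high at 12.04 in these cultures, and Laptm5 averaged 6.91 and Csf1r 6.46. The mean over the macrophage list spanned 5.58 to 5.60 in RAW_FAC, 5.55 to 5.65 in FAC, 5.58 to 5.65 in RAW and 5.52 to 5.60 in alone, so the groups overlapped.

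Iron reaches the mitochondrial matrix through the mitoferrins, carrier proteins of the inner membrane. There the cysteine desulfurase Nfs1 supplies sulfur, and the cluster is put together on the scaffold protein Iscu. The co-chaperone Hscb helps hand the cluster on, the monothiol glutaredoxin Glrx5 carries it, and Isca1 takes part in making the larger clusters that some enzymes need. In liver, as elsewhere, these clusters serve respiration, the citric acid cycle and DNA metabolism, and cytosolic aconitase (Aco1) doubles as an iron sensor when it lacks its cluster.

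Promoter sequences are shown for Slc25a28, which had the largest average change with iron, and for Isca1 and Glrx5, whose levels ran most alike over the arrays. They come from RefSeq (GRCm38.p6), whose promoter table used here held 4 of the 7 members, and are printed 5′ to 3′ on the strand of the gene, from 250 bases before the start listed there up to the base before the outermost start that RefSeq gives the gene. Capitals mark matches on either strand to CCAAT (the CCAAT box, reverse ATTGG), TGACNNNGC (the core of the antioxidant response element) and TGCGCA (the NRF1 core); no match overlapped another. Slc25a28 is at chr19:43675007-43675131 on the minus strand (125 bases), Isca1 at chr13:59769790-59770039 on the minus strand (250 bases) and Glrx5 at chr12:105032368-105032617 on the plus strand (250 bases).
Slc25a28: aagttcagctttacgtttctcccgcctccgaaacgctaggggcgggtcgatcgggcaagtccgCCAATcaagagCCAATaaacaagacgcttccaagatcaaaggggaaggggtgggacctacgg
Isca1: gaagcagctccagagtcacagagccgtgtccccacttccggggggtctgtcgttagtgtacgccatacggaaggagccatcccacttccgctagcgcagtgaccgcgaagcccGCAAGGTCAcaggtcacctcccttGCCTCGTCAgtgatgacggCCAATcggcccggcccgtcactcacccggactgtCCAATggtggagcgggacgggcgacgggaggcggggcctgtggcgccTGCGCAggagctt
Glrx5: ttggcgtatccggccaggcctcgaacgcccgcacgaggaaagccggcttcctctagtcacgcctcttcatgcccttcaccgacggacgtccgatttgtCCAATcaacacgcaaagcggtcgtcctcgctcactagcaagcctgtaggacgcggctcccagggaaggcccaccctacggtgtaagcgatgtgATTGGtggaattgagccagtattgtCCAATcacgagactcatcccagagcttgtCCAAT

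The 3 promoters printed shared the CCAAT box but not the other motifs. Within 250 bases Glrx5 had 4 CCAAT boxes, Slc25a28 had 3, of which 2 lie in the stretch printed, and Isca1 had 2. Of 32851 mouse promoters of the same length, 33.8% held at least 1 CCAAT box. Isca1 also had 2 matches to the antioxidant response element, found in 10.2% of promoters, and 1 to the NRF1 core, found in 6.43%. Nfs1, at chr2:156144203-156144436 on the minus strand, had 2 matches to the antioxidant response element and 0 CCAAT boxes in these 234 bases.

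That iron acted on these cells was checked with Tfrc, which encodes the transferrin receptor and whose transcript is degraded when iron is plentiful. Tfrc (1452661_at) stood at 12.31, 12.18 and 11.55 in RAW_FAC (replicates 1, 2 and 3) and at 12.35, 12.14 and 11.46 in FAC, against 13.40, 13.16 and 13.07 in RAW and 13.28, 13.29 and 13.11 in alone. All 6 arrays with iron lay below all 6 without. The average effect of iron, the mean of RAW_FAC against RAW and FAC against alone, was -1.22 ± 0.15 (SE; 6 arrays with iron, 6 without), or 0.428-fold. Its adjusted p in limma was 0.0855 without a block and 0.00135 with the replicate number of the titles as a block, and it was lower in 6 of 6 same-number pairs, each an array with and an array without iron that share a number and the insert.

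**Figure D1:**
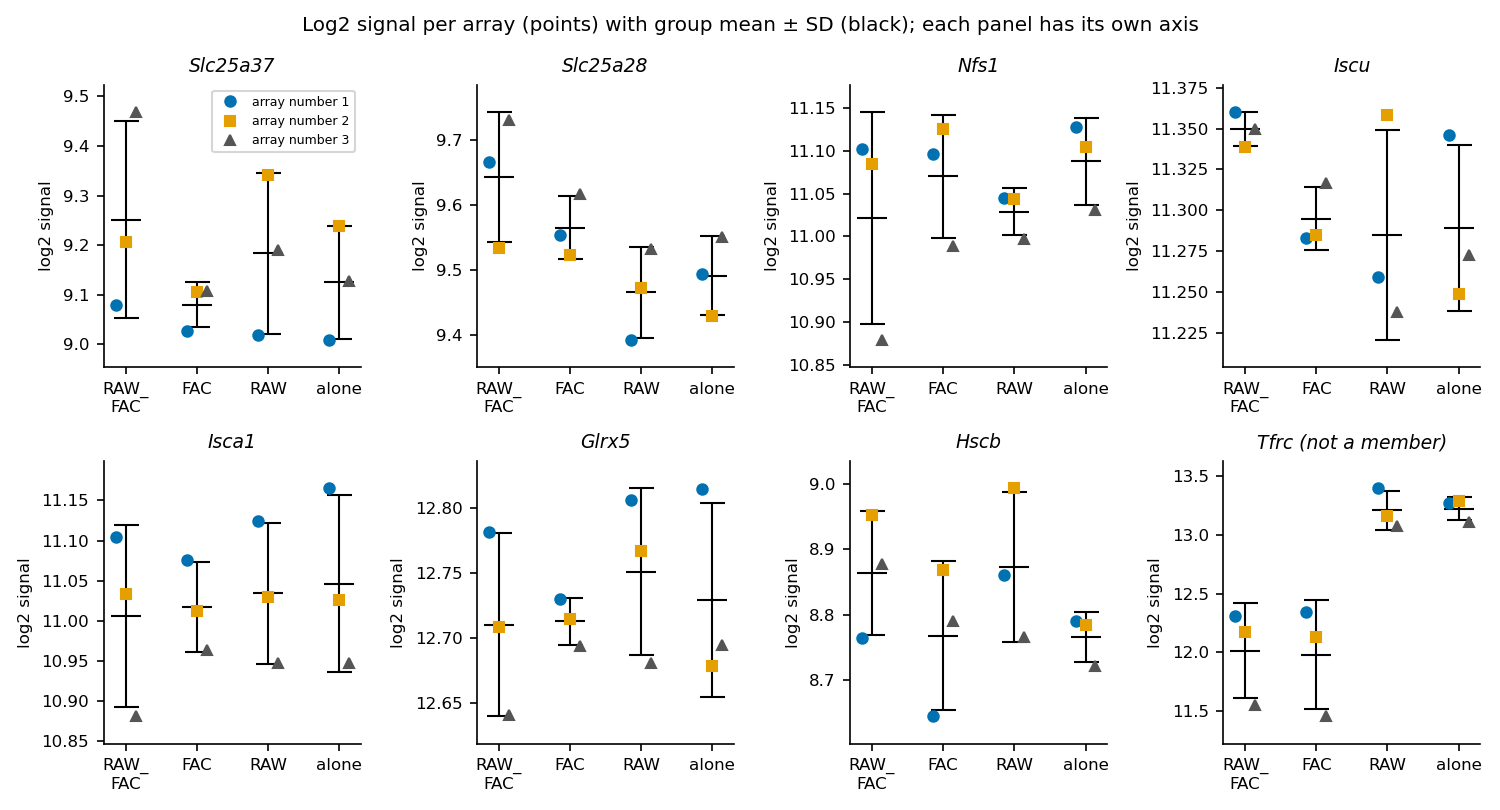
Log2 signal of the 7 genes and of Tfrc on each of the 12 arrays, 1 panel per gene, with groups from left to right RAW_FAC, FAC, RAW and alone; points are arrays, marked by replicate number, and bars are group means ± SD. Tfrc is lower in all 6 arrays with iron, whereas the 7 genes overlap between groups except where Slc25a28 in RAW_FAC clears RAW and Iscu in RAW_FAC clears FAC.

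Both mitoferrins lay above the median of all probe sets. Slc25a28, mitoferrin 2, the carrier of non-erythroid cells (chromosome 19, probe set 1424776_a_at), had 9.67, 9.53 and 9.73 in RAW_FAC, 9.55, 9.52 and 9.62 in FAC, 9.39, 9.47 and 9.53 in RAW and 9.49, 9.43 and 9.55 in alone. The group means ran RAW_FAC 9.64 ± 0.10, FAC 9.56 ± 0.05, alone 9.49 ± 0.06 and RAW 9.47 ± 0.07 (SD, n = 3 each), and 1 of the 3 steps in that order exceeded the larger SD of its neighbours. The 3 RAW_FAC arrays were above the 3 RAW arrays, though only just, with 9.534 as the lowest and 9.532 as the highest. FAC overlapped alone. The array numbered 3 was the highest of each group.

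The average effect of iron on Slc25a28 was 0.13 ± 0.05 (SE), a 1.09-fold difference with a 95% interval of 1.01 to 1.18, an unadjusted p of 0.0295 and an adjusted p of 0.882 in limma. It was higher with iron in 6 of 6 same-number pairs, by 0.060 to 0.27. The change was 0.18 ± 0.07 in RAW_FAC against RAW (adjusted p = 0.905) and 0.073 ± 0.073 in FAC against alone (adjusted p = 1, limma). The difference between these changes, the interaction of iron and macrophages, was 0.10 with an interval of -0.12 to 0.33. With the replicate block the average effect had an adjusted p of 0.334 in limma. The value depended little on single arrays, from 0.10 without RAW_FAC replicate 3 to 0.15 without RAW_FAC replicate 2.

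Slc25a37, mitoferrin 1, best known from red cell precursors (chromosome 14, 1417750_a_at), had 9.08, 9.21 and 9.47 in RAW_FAC, 9.03, 9.11 and 9.11 in FAC, 9.02, 9.34 and 9.19 in RAW and 9.01, 9.24 and 9.13 in alone. All groups overlapped. In each of the 4 groups the array numbered 1 was the lowest. With iron it differed by 0.012 on average, with an interval of -0.15 to 0.17. The average effect of macrophages, the mean of RAW_FAC against FAC and RAW against alone, was 0.12 ± 0.075 (SE), with an interval of -0.048 to 0.28 and an unadjusted p of 0.15 in limma. It was higher beside macrophages in 6 of 6 same-number pairs, by 0.009 to 0.36. RAW_FAC replicate 3 weighed on this value, which was 0.061 without it.

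The group means of the desulfurase (brightest probe set) and the scaffold lay close together, within 0.066 and 0.065. Nfs1 (chromosome 2, 1416373_at) had 11.10, 11.08 and 10.88 in RAW_FAC, 11.10, 11.13 and 10.99 in FAC, 11.05, 11.04 and 10.997 in RAW and 11.13, 11.10 and 11.03 in alone. The groups overlapped, and the array numbered 3 was lowest in each. The average effect of iron was -0.012 (interval -0.13 to 0.10) and that of macrophages -0.054 (interval -0.17 to 0.060). The other Nfs1 probe sets gave 0.045 (1431431_a_at) and 0.10 (1442017_at) with iron, with intervals that held 0. The dimmest of them, 1442017_at, averaged 5.38, and the other 9 member probe sets lay above the median of all.

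Iscu (chromosome 5, 1452579_at) had the narrowest spread, with all 12 arrays within 0.12. It stood at 11.36, 11.34 and 11.35 in RAW_FAC, 11.28, 11.28 and 11.32 in FAC, 11.26, 11.36 and 11.24 in RAW and 11.35, 11.25 and 11.27 in alone. RAW_FAC lay above FAC without overlap, by 0.055 ± 0.062 (SE of the fit) with an interval of -0.080 to 0.19, and overlapped RAW and alone. On average Iscu differed by 0.035 with iron (interval -0.060 to 0.13) and by 0.025 beside macrophages (interval -0.070 to 0.12).

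Hscb (chromosome 5, 1427927_at) had 8.76, 8.95 and 8.88 in RAW_FAC, 8.64, 8.87 and 8.79 in FAC, 8.86, 8.99 and 8.77 in RAW and 8.79, 8.79 and 8.72 in alone, and the groups overlapped. It was higher beside macrophages in 6 of 6 same-number pairs, by 0.043 to 0.21, with an average of 0.10 ± 0.06 (SE; interval -0.025 to 0.23, unadjusted p = 0.107 in limma). With iron its average difference was -0.003 (interval -0.13 to 0.12).

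Glrx5 (chromosome 12, 1428553_at) had 12.78, 12.71 and 12.64 in RAW_FAC, 12.73, 12.71 and 12.69 in FAC, 12.81, 12.77 and 12.68 in RAW and 12.81, 12.68 and 12.69 in alone. Isca1 (chromosome 13, 1423651_at) had 11.10, 11.03 and 10.88 in RAW_FAC, 11.08, 11.01 and 10.96 in FAC, 11.12, 11.03 and 10.95 in RAW and 11.16, 11.03 and 10.95 in alone. For both genes the groups overlapped and the array numbered 1 was the highest in 4 of 4 groups. Both averaged -0.028 with iron, with intervals of -0.13 to 0.076 for Glrx5 and -0.15 to 0.098 for Isca1. Beside macrophages they differed by 0.010 (interval -0.095 to 0.11) and -0.012 (interval -0.14 to 0.11). The dimmer probe set of Isca1, 1423652_at, gave -0.010 with iron and -0.019 beside macrophages.

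**Figure D2:**
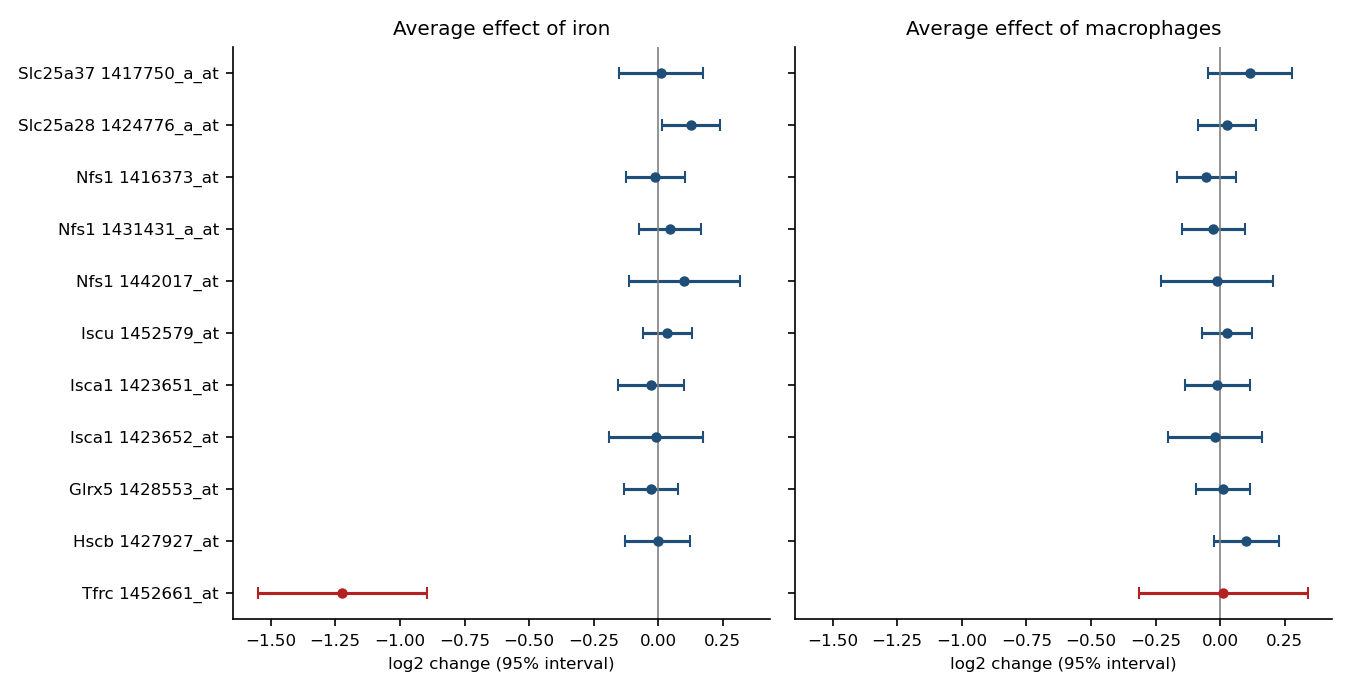
Average log2 change with iron and beside macrophages for the 10 member probe sets and Tfrc; points are limma estimates and bars are 95% intervals. Among the members, the interval with iron stays clear of 0 for Slc25a28 alone, at 0.015 to 0.24, while that of Tfrc lies at -1.55 to -0.90.

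**Figure D3:**
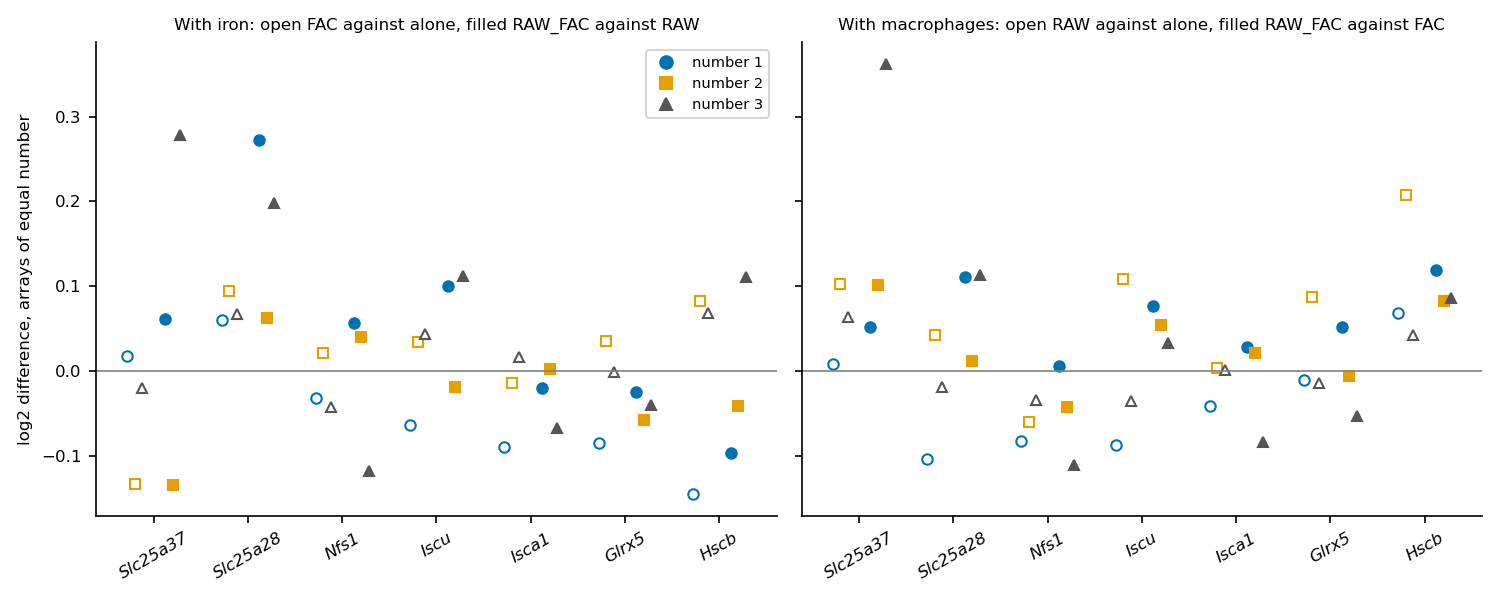
Log2 differences within the 6 same-number pairs for iron and the 6 for macrophages, for the brightest probe set of each gene; points are pairs, marked by replicate number, and filled ones are from RAW_FAC. Slc25a28 is above 0 in all 6 pairs for iron, and Slc25a37 and Hscb in all 6 for macrophages.

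These counts are read against the whole array of 45037 probe sets tested. Higher in 6 of 6 pairs with iron were 3.23% of all probe sets and 1 of the 10 members, and lower were 3.33% and 0 members. Higher in 6 of 6 pairs beside macrophages were 2.50% of all probe sets and 2 members, and lower were 2.59% and 0 members. Groups did not overlap for 1 of 10 members in RAW_FAC against RAW (9.65% of all probe sets) and 1 of 10 in RAW_FAC against FAC (6.94%). They overlapped for all 10 members in FAC against alone, RAW against alone and RAW_FAC against alone, where 7.93%, 9.03% and 8.88% of all probe sets did not overlap. The members' counts in the comparisons between groups were thus near the background.

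The limma fit without a block called few or no probe sets anywhere. It called 0% of all probe sets in 7 of the 8 comparisons and 0.00222% (1 probe set) in the average effect of macrophages. At an unadjusted p under 0.05, 1 of 10 members (Slc25a28) passed in RAW_FAC against RAW, where 5.33% of all probe sets did, and 1 of 10 (again Slc25a28) in the average effect of iron, where 5.58% did. None of the 10 members passed that level in FAC against alone (3.00% of all probe sets), RAW against alone (4.01%), RAW_FAC against FAC (3.18%), RAW_FAC against alone (4.52%), the interaction (3.07%) or the average effect of macrophages (3.89%).

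With the replicate block the fit called 0.369% of all probe sets in the average effect of iron, 0.00666% in that of macrophages, 0.00222% in FAC against alone, 0.0178% in RAW_FAC against RAW, 0.0333% in RAW_FAC against alone and 0% in RAW against alone, RAW_FAC against FAC and the interaction. Again 0 of the 10 members were among them. These counts moved when 1 array was also left out. The 166 calls for iron fell whichever of the 12 arrays that was, to between 34 (without FAC replicate 1) and 117 (without RAW_FAC replicate 3). The 3 for macrophages became 0 to 38 (without alone replicate 1) and the 8 in RAW_FAC against RAW 0 to 9. The 15 in RAW_FAC against alone became 0 to 47 (without RAW replicate 1), and the 1 in FAC against alone 0 to 3. Why the counts moved was not tested. The 7 genes thus differed by at most 0.18 between any groups (the range of group means of the brightest probe set of each), against 1.25 for Tfrc.

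For most members the replicate number went with more of the variation than iron and macrophages did. Of the sum of squares over the 12 arrays, the number took 88.6% for Isca1 (1423651_at), 68.8% for Glrx5, 64.4% for Nfs1 (1416373_at), 45.5% for Slc25a37, 40.0% for Hscb, 29.4% for Slc25a28 and 3.0% for Iscu. In the other probe sets the number took 63.2% for Isca1 (1423652_at), and 10.3% (1431431_a_at) and 23.2% (1442017_at) for Nfs1. Iron took 47.6% for Slc25a28, and macrophages 29.8% for Hscb. The number took more than both treatments and their interaction together in 7 of 10 member probe sets (70.0%), against 51.8% of all probe sets. Averaged over probe sets it took 43.6% among the members and 30.1% on the whole array.

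An F test of the number in limma, added after the values were seen, called 0 of 10 members, with a lowest adjusted p of 0.082 for Isca1, and 8.06% of all probe sets. At an unadjusted p under 0.05, 3 of 10 members passed, against 24.2% of all. Arrays numbered 1 exceeded those numbered 3 by 0.18 for Isca1 (1423651_at), 0.12 for Nfs1 (1416373_at) and 0.10 for Glrx5. They were lower by 0.19 for Slc25a37 (number 1 minus number 3 was -0.19). The other probe sets gave 0.26 for Isca1 (1423652_at), and 0.061 (1431431_a_at) and -0.19 (1442017_at) for Nfs1. The titles do not say what the numbers stand for, and what differed between them was not tested.

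**Figure D4:**
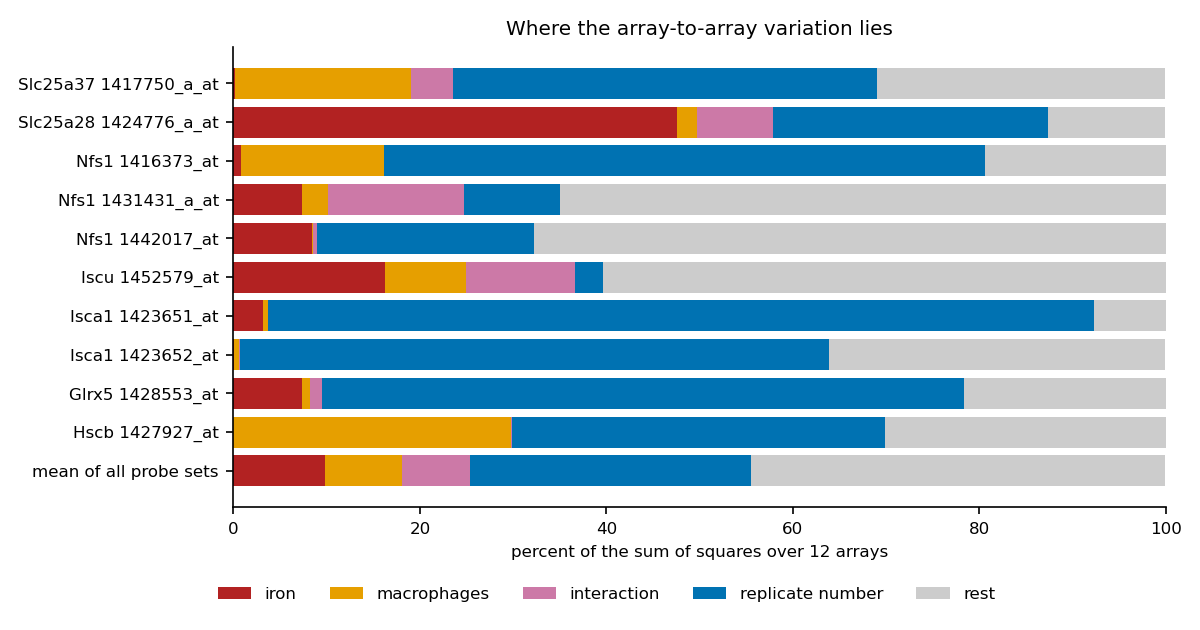
Share of the sum of squares over the 12 arrays (percent) taken by iron, macrophages, their interaction, the replicate number and the rest, as stacked bars for each member probe set and for the mean of all probe sets. The replicate number takes 88.6% for Isca1 (1423651_at) and 3.0% for Iscu, against a mean of 30.1% over all probe sets.

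Over the 12 arrays, which share these treatments and replicate numbers, Isca1 and Glrx5 ran closest together (Pearson r = 0.91), Nfs1 followed Isca1 (0.77, 12 arrays), and Slc25a37 ran against Isca1 (-0.69). The nearest genes among 11256 searched, 2 for each member by Pearson r over the same 12 arrays, were Pabpc4 (0.96) and Il18rap (0.95) for Slc25a37, Dhcr7 (0.94) and Zfp384 (0.94) for Slc25a28, and Appbp2 (0.95) and Cramp1l (0.95) for Nfs1. For Iscu they were Elob (0.89) and Poldip2 (0.84), for Isca1 Clk4 (0.98) and Coq10b (0.98), for Glrx5 Map3k7 (0.96) and Rnf146 (0.96), and for Hscb Dusp16 (0.92) and Atp6v1c1 (0.91). These are descriptions over arrays in which many genes differed by replicate number.

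The genes around the 7 members were summarised by 7 lists holding 85 genes, of which 78 were measured. Without the block, 0 of the 78 passed in either average effect. Across all 18193 genes the median change with iron was -0.002, and 8897 lay above 0. Among partners of mitochondrial assembly 7 of 13 lay above 0 with iron (median 0.010). Lyrm4, a subunit that stabilises Nfs1, gave 0.14 ± 0.05 (SE; unadjusted p = 0.013, adjusted p = 0.857 in limma), and Grpel1, a nucleotide exchange factor of the mitochondrial chaperone, -0.069. Among mitochondrial partners in iron and heme handling 8 of 8 lay above 0 in the average effect of iron (median 0.039). That was 8 of 8 in RAW_FAC against RAW (median 0.116) but 4 of 8 in FAC against alone (median 0.005). Set against alone, RAW had 1 of 8 above 0 (median -0.047) and RAW_FAC 6 of 8 (median 0.074). Alas2 and Ftmt, named here for their low level, averaged 4.21 and 4.24 over the 12 arrays, below the median of all probe sets. Fech, ferrochelatase, which inserts iron into heme, averaged 0.11 ± 0.05 (SE, adjusted p = 0.891 in limma). Cpox, an enzyme earlier in the same pathway, averaged 0.22 ± 0.13 (SE, adjusted p = 0.924 in limma).

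Cytosolic assembly genes lay above 0 in 1 of 9 in the average effect of iron (median -0.028). That was 1 of 9 in FAC against alone (median -0.075) but 4 of 9 in RAW_FAC against RAW (median -0.003). RAW against alone had 2 of 9 above 0 (median -0.02). Glrx3, a cytosolic glutaredoxin, gave -0.13 ± 0.06 (SE, unadjusted p = 0.0478, adjusted p = 0.891 in limma) at a dim mean of 5.31, below the median of all probe sets. Ciao2b, a targeting factor, gave -0.071. Among proteins that hold the clusters, 3 of 12 mitochondrial ones lay above 0 on average (median -0.015), with 1 of 12 in FAC against alone and 6 of 12 in RAW_FAC against RAW. In RAW against alone 2 of 12 lay above 0. Cdk5rap1, a tRNA-modifying enzyme, averaged -0.064 and Ndufs1 of respiratory complex I -0.063. Of 17 cytosolic and nuclear ones 5 lay above 0 (median -0.021), with -0.15 for Prim2, the large subunit of DNA primase, and -0.099 for Cdkal1, a tRNA-modifying enzyme. Carriers and redox partners of the same families as the members had 7 of 12 above 0 (median 0.001), with 0.15 for Slc25a33, a pyrimidine nucleotide carrier, and 0.10 for Slc25a38, a carrier linked to heme synthesis. None of these passed.

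With the block, limma called 2 of the 78 genes in the average effect of iron. Tfrc fell, as above, and Xdh, xanthine dehydrogenase, an iron-sulfur enzyme of purine breakdown, rose. Xdh (1451006_at) had 5.43, 6.18 and 6.13 in RAW_FAC, 5.35, 6.06 and 6.14 in FAC, 5.23, 5.81 and 5.89 in RAW and 5.12, 5.80 and 5.67 in alone. The array numbered 1 was the lowest of each group by far, so the groups overlapped, but Xdh was higher with iron in 6 of 6 same-number pairs, by 0.20 to 0.46. Its average change was 0.30 ± 0.05 (SE; adjusted p = 0.0261 with the block in limma), against an adjusted p of 0.924 without the block. When any 1 of the 12 arrays was left out of the fit with the block, the count of list genes called was 1, which was Tfrc each time, so the call of Xdh was lost whichever array was left out.

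The 7 genes of the iron response list, which includes Tfrc, went both ways with iron (median 0.006). Of the 7, 4 had an unadjusted p under 0.05 in limma, against 5.58% of all probe sets. The list uses 1 probe set per gene and was chosen with earlier results of these data known, so this comparison is not a test. Slc40a1, the iron exporter ferroportin, gave 0.20 ± 0.06 (SE; adjusted p = 0.838 in limma) at a dim mean of 4.83. Named after their values were seen, Ncoa4, the receptor that takes ferritin to lysosomes, gave 0.19 ± 0.06 (SE; adjusted p = 0.843, or 0.104 with the block, in limma) and Slc11a2, the iron transporter DMT1, -0.11 ± 0.05 (SE; adjusted p = 0.891 in limma). Beside macrophages, the gene of smallest p in each list was Fdx1, a ferredoxin (-0.12), Ciao3 (-0.056), Ppox of heme synthesis (0.089), Ndufv1 of complex I (-0.036), Aco1 (-0.079), Slc25a33 (0.12) and Ireb2, an iron regulatory protein (-0.083). None passed in limma. The median over all genes there was 0.005, with 9786 of 18193 above 0.

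**Figure D5:**
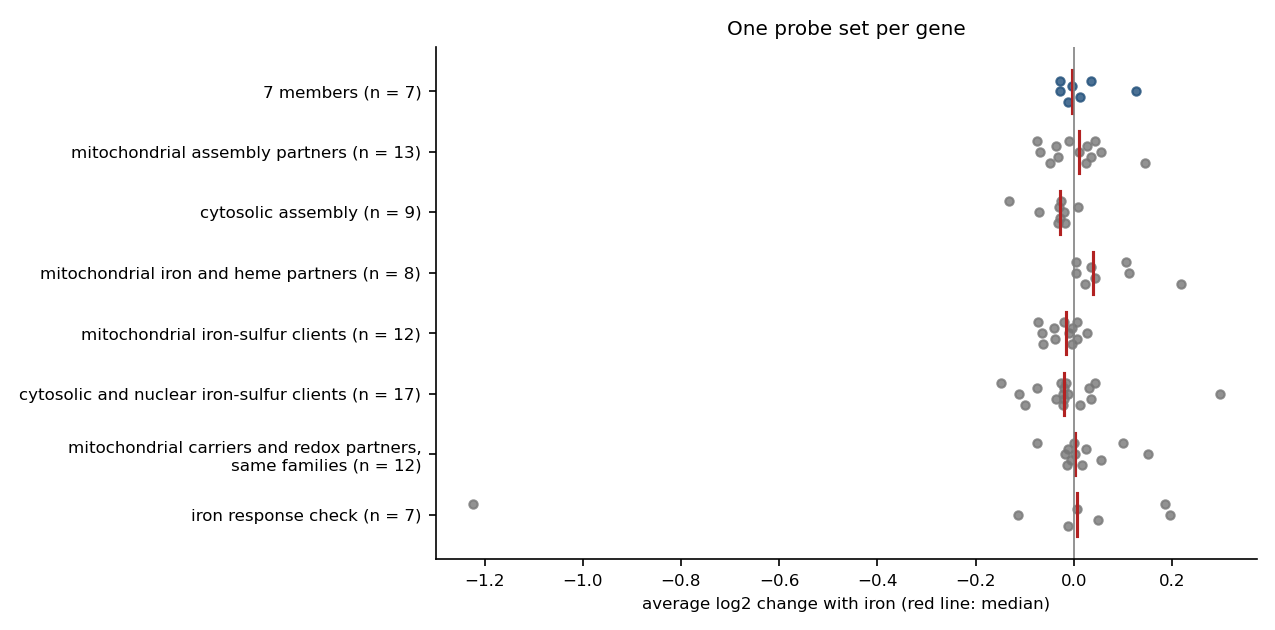
Average log2 change with iron of each measured gene in the 7 lists and of the 7 members, 1 strip per list; points are genes and bars are list medians. List medians lie between -0.028 and 0.039, and Tfrc at -1.22 is the farthest point from 0.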

How the data were processed

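Arrays of BNL CL.2 cells were grouped by the sample titles, which also give replicate numbers 1 to 3. The authors deposited log2 signals from RMA in affy, per the submitters' processing notes, which name no version. RMA sets all arrays to like distributions, so a shift of most genes would not show, and the number of arrays limits the precision. Array medians ran from 5.63 to 5.68. Of 45101 probe sets, 34958 had 1 symbol, 932 several and 9211 none. The 64 control probe sets were left out.

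Linear models with a mean for each group were fitted to 45037 probe sets in limma 3.58.1 (R 4.3.3), two-sided, with Benjamini-Hochberg adjustment over all of them and a threshold of 0.05. Intervals are at 95%. For list genes the probe set with the highest mean was used. The fits were tested on simulated data whose noise was independent between arrays, without an effect of replicate number. That test cannot tell how often the fit with the block errs in these data. Python 3.11.15, numpy 2.4.6, pandas 2.3.3 and matplotlib 3.10.9 made the tables and plots.

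Deviations from the group means correlated at 0.24 to 0.43 (median 0.33) in the 18 pairs of arrays of equal number in different groups and in the 36 pairs of different number at -0.31 to 0.018 (median -0.17). Deviations cancel within each group, so positive values at equal number bring negative ones at different number, which add no separate evidence. Because of the pairs of equal number, the number was also fitted as a block. Pairs of equal number that shared the iron condition had a higher median (0.37) than those that did not (0.27), so SE and p with the block may be too small for iron. The labels do not say whether replicates came from separate cultures, so the p-values rest on a spread among samples that may be technical.

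The 7 members, the lists and the rules were chosen with earlier results of these data known. The text names all member probe sets and Tfrc. Of each list it names the members that passed in an average effect, and otherwise the 2 of smallest p for iron and the 1 of smallest p for macrophages. For each member it gives the 2 genes of highest Pearson r among genes above the median of all probe sets. Of the 85 genes listed, 7 were not analysed here.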

Additional observations from a re-analysis of the deposited data

How the results depend on the processing

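The count of member probe sets called was 0 in each comparison an alternative could give. These were median centring, quantile normalization, 1 probe set per gene (7 of the 10 tested), probe sets at or above the median (9 tested), trend and robust moderation, array weights, the compared groups only (which gives no average effect or interaction), each of the 12 arrays left out, the replicate block, and the block with each array left out. The last, and the test of the replicate number, were added after the data were seen. Uncalled changes near 0 turned sign in 79 of 672 values with an array left out, to at most 0.064 in size (Nfs1 in RAW_FAC against RAW without RAW_FAC replicate 3), and in 21 of 427 other values, to at most 0.026.

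The replicate block moved the counts of list genes called. Without it 0 passed in any comparison. With it Tfrc was the 1 gene called in FAC against alone, RAW_FAC against RAW and RAW_FAC against alone, and 2 genes, Tfrc and Xdh, were called in the average effect of iron. It changed no other call of a member or list gene. Over all probe sets the average effect of iron had 0 calls without and 166 with the block, or 34 to 117 with an array also left out. With an array also left out, the list count was 0 to 1 in FAC against alone, with a call in 2 of 12 fits, in RAW_FAC against RAW (4 of 12) and in RAW_FAC against alone (8 of 12), and 1 in 12 of 12 for the average effect of iron. Without the block, the average effect of iron also had 1 call, Tfrc, with 1 probe set per gene (adjusted p = 0.0396 in limma) and with array weights (0.0479). Over the other alternatives without the block the adjusted p of Tfrc in limma ran from 0.0558 to 0.408. The causes were not tested. In fits without the block that omit an array, the groups no longer hold the same replicate numbers.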

Other observations

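Afp, the fetal liver protein alpha-fetoprotein and 1 of the 7 hepatocyte markers measured, averaged 0.45 ± 0.24 (SE without the block) higher with iron. It was the 1 marker called with the replicate block in limma. That fit called 0.369% of all probe sets in the average effect of iron, and its p for iron may be too small. Without the block the unadjusted p of Afp was 0.0889 and its adjusted p 0.911 in limma. Its call with an array left out is not given here. The other hepatocyte markers were not called in either fit.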
